A study of Arabidopsis thaliana with 58 samples.

Results

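The chloroplast-encoded genes of Arabidopsis thaliana were followed through 8 days without magnesium (Mg). They were taken as every locus whose identifier begins with ATCG, the prefix of the chloroplast genome, in 7 tables of RNA-seq signal. This gave 96 loci of 23898 in all, with 75 to 90 per table in leaves and 53 in roots, and 50 loci were listed in all 7 tables. Of these 96 loci, 65 had a mean signal of at least 5 in at least 1 table and were tested there, and 31 stayed below that level throughout. In mature leaves 57, 56 and 38 loci were tested on days 3, 5 and 8, in expanding leaves 61, 62 and 47, and in roots 26.

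The plants were wild-type Columbia-0 in hydroponic culture. Control plants were kept at 1.5 mM Mg, and Mg-deficient plants were moved to 0 mM Mg at day 0 of treatment, so that days 3, 5 and 8 correspond to an age of 13, 15 and 18 days. Sodium sulphate took the place of magnesium sulphate in the 0 mM Mg solution, so that sodium was higher there. The paper considered this replacement valid, since transcripts of a salt stress marker did not change. Loss of Mg and added sodium cannot be told apart in these comparisons. Mature leaves are the oldest pair of rosette leaves and expanding leaves the following pair, which were still growing. Mature leaves gave 4 control and 3 Mg-deficient libraries on day 3, then 5 and 3 (day 5), then 4 and 4 (day 8). For expanding leaves they numbered 5 and 4, 5 and 3, and 4 and 5 in the same order of days, and for roots on day 3 they numbered 6 and 3. Each library was a separate sample pooled from several plants, and libraries of different tissues can come from the same plants.

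Chloroplasts keep a small circular genome of their own. It carries core subunits of photosystem I (psa genes), photosystem II (psb genes), the cytochrome b6f complex (pet), the ATP synthase (atp) and the NDH complex (ndh), the large subunit of Rubisco (rbcL), part of the chloroplast ribosome (rpl and rps genes), a bacterial-type RNA polymerase (rpo), and transfer and ribosomal RNAs. The other subunits of the same complexes are encoded in the nucleus, so that each complex is built from transcripts of both genomes. Chloroplast genes are mostly transcribed together in long units that are cut and trimmed afterwards, by the chloroplast-encoded polymerase with nuclear sigma factors and by nucleus-encoded phage-type polymerases. Their transcripts largely lack the long poly(A) tails of nuclear mRNA. RNA was purified on magnetic beads here, so that the values describe the chloroplast RNA that this preparation kept and not the chloroplast's whole RNA.

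The annotations used here give a name to 9 of the 96 loci and leave 87 without one, and a grouping by complex was therefore possible for these 9 alone. They include photosystem II genes PSBJ (ATCG00550) and PSBK (ATCG00070), PSBG (ATCG00430, an old photosystem II name for a gene now known to encode an NDH subunit), RPL20 (ATCG00660, a protein of the large ribosomal subunit), TRNP (ATCG00620, a proline transfer RNA), ACCD (ATCG00500, a subunit of the acetyl-CoA carboxylase of fatty acid synthesis), CLPP (ATCG00670, the proteolytic subunit of the Clp protease) and CEMA (ATCG00530, an envelope membrane protein linked to proton extrusion). The remaining loci are given by identifier where the results turn on them. Some chloroplast genes lie in an inverted repeat and exist as identical copies, and how reads matching both copies were counted is not given in the sources used here, so that single loci from the repeat are uncertain.

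Signal here means the read count of a gene after the authors' adjustment to a common library size within a table. Reads were recovered from it, and the libraries held 545998 to 4014871 reads each (median 1964031). Of these, 5270 to 68482 reads per leaf library and 2095 to 5701 per root library fell on chloroplast-encoded loci. The tissue labels were checked with markers. The 5 mesophyll markers summed to 0.608 to 5.46% of signal in leaf libraries and to 0.00124 to 0.0294% in root libraries, while of the 5 root markers at most 3 were listed in any leaf table. Tables were adjusted separately, so levels are compared within a table only.

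The share of a library's signal that came from chloroplast-encoded loci was lower in every Mg-deficient library of expanding leaves on day 8 than in any control library. The control libraries held 1.23, 1.38, 1.52 and 1.90%, and the Mg-deficient libraries held 0.284, 0.312, 0.287, 0.261 and 0.264%. The groups did not overlap, and the means were 1.51% ± 0.287 (SD, n = 4) and 0.282% ± 0.0205 (SD, n = 5), which is 5.35-fold lower without Mg. The 95% Wilson interval of a single library's share spanned at most 0.0695 percentage points over all leaf libraries, which covers counting error only.

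On day 5 the shares of expanding leaves overlapped. The control libraries held 2.23, 1.103, 2.69, 1.86 and 2.14%, and the Mg-deficient libraries held 1.39, 1.23 and 1.33%. One control library lay below all 3 Mg-deficient libraries, and the other 4 lay above them. On day 3 the control libraries ranged from 1.93 to 2.60% and the Mg-deficient libraries from 0.990 to 3.22%, a range that enclosed the controls.

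In mature leaves the shares overlapped on every day. On day 3 they were 1.99 to 3.09% in control libraries and 1.98 to 2.42% in Mg-deficient ones, and on day 8 they were 0.780 to 1.99% and 0.596 to 1.21%. On day 5 the control libraries held 2.47, 2.16, 1.88, 0.508 and 0.644% and the Mg-deficient libraries 2.21, 2.65 and 0.658%. Low and high libraries were present in both treatments on that day, and the labels do not set them apart. Roots held 0.137 to 0.217% in control libraries and 0.130 to 0.205% in Mg-deficient ones.

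**Figure D1:**
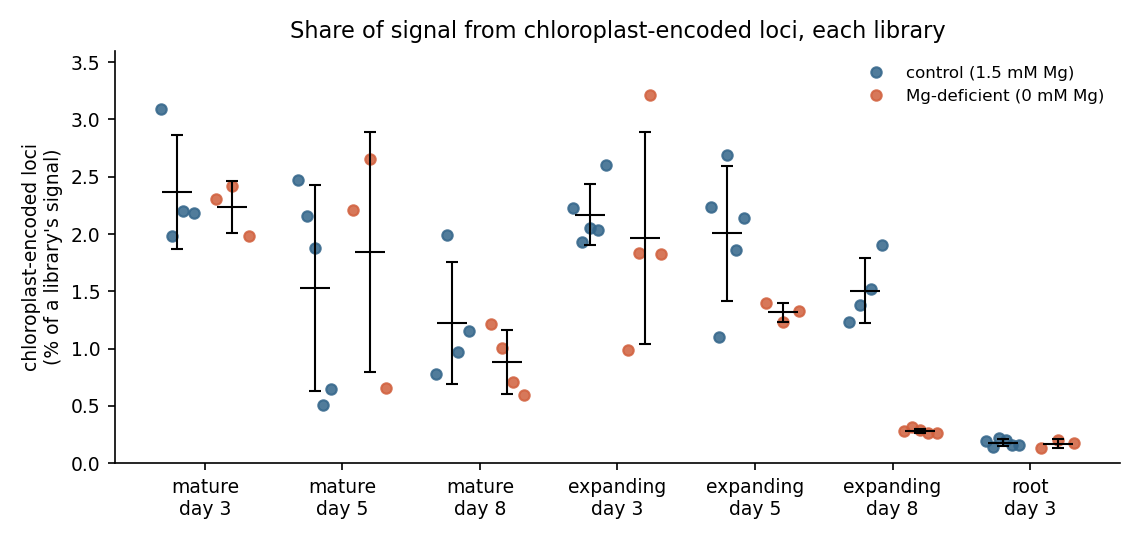
Share of each library's signal (%) that came from chloroplast-encoded loci, by tissue and day, with 1 point per library and bars for the mean and SD of a group. The Mg-deficient libraries of expanding leaves on day 8 sit between 0.261 and 0.312%, below all control libraries of that day, and in the other 6 tables the groups overlap.

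A few loci carried most of the chloroplast signal. ATCG00470, ATCG00220, ATCG01020 and ATCG01130, the 4 loci with the highest mean signal over the tables, held together 72.9 to 85.0% of it on average in every group. These are shares of signal that was not divided by gene length, and they do not rank the loci by transcript number. The leading locus differed between tissues. In roots ATCG01130 held 56.0% of the chloroplast signal in control libraries and 57.4% in Mg-deficient ones, while in mature leaves on day 3 ATCG00470 led with 40.8 and 39.4%.

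The make-up of the chloroplast signal in expanding leaves differed between treatments on day 5. ATCG00470 held 27.6 to 39.96% of it in control libraries and 11.3 to 14.3% in Mg-deficient libraries, and ATCG00220 held 10.9 to 22.3% and 28.8 to 37.9%. Neither pair of ranges overlapped. On day 8 the share of ATCG00470 was 13.4% on average in control libraries and 13.5% in Mg-deficient libraries. ATCG00220 then held 34.0 to 50.7% with Mg and 25.4 to 34.4% without, and ATCG01130 held 8.47 to 11.9% and 17.5 to 22.6%. Such shares are parts of a fixed sum, so that a locus gains share when others lose it. The signal of ATCG01130 itself fell on day 8, as given below. In mature leaves on day 5 the share of ATCG00470 ran from 9.03 to 43.9% among control libraries alone.

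**Figure D2:**
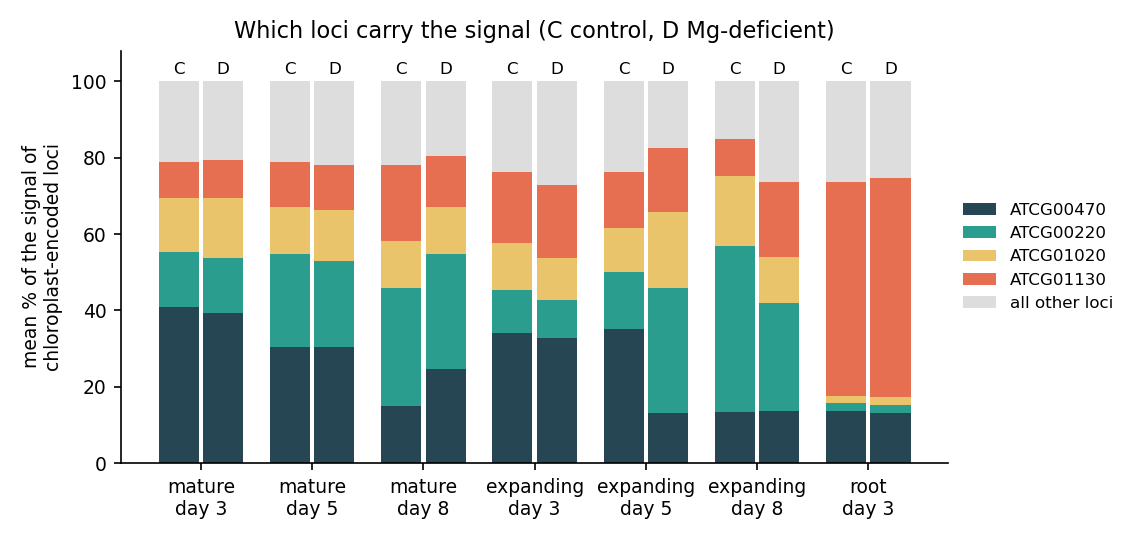
Mean share (%) of the chloroplast signal held by the 4 loci of highest signal and by all other chloroplast-encoded loci, in control (C) and Mg-deficient (D) libraries of each table. ATCG00470 holds 35.2% on average in control expanding leaves on day 5 and 13.1% in Mg-deficient ones, while the bars of roots are alike with ATCG01130 at 56.0 and 57.4%.

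Single loci were tested with limma on log2(signal + 1) across all genes of a table, and a locus is called here when its Benjamini-Hochberg adjusted p over all these genes was under 0.05. All calls but 1 were falls in expanding leaves on days 5 and 8. On day 5, 20 of 62 loci fell (32.3%) and none rose, where 14.8% of all genes tested fell and 13.7% rose. On day 8, 20 of 47 loci fell (42.6%) and none rose, where 14.9% of all genes fell and 30.8% rose. When the minimum signal was dropped, some chloroplast loci were called as rises on day 8, as given in the last section. At an unadjusted p under 0.05, 1 chloroplast locus was higher without Mg on day 5 (18.1% of all genes) and 0 on day 8 (35.8%), and edgeR, by its quasi-likelihood and exact tests, called 0 rises on either day. Fewer chloroplasts or cells and less chloroplast RNA per cell cannot be told apart in such bulk samples.

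The median log2 fold change of the loci tested was -1.13 on day 5, against -0.34 over all genes, and -0.86 on day 8, against 0.63 over all genes. The median of the chloroplast loci minus that of all genes was thus -0.79 on day 5 and -1.50 on day 8. They were -0.81 and -1.45 when libraries were scaled by the median of ratios, which moved the median of all genes to -0.06 and 0.06. Every Mg-deficient library lay below every control library for 17 loci on day 5 (27.4%, against 17.8% of all genes tested) and for 20 loci on day 8 (42.6%, against 12.9%).

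Libraries also differed in how many genes were detected. In expanding leaves on day 8 a read was found for 12275 to 15172 genes in control libraries and for 18422 to 18718 in Mg-deficient libraries, and on day 5 for 17206 to 18285 and 12656 to 16654. For chloroplast-encoded loci these numbers were 41 to 55 and 61 to 70 on day 8, and 73 to 87 and 53 to 60 on day 5. On day 8 the 5 mesophyll markers all fell, with a summed share of 3.15 to 3.70% with Mg and 0.608 to 1.15% without. These markers are nuclear genes of photosynthesis, with RBCS1A of the Rubisco list below among them. Their sum is therefore no separate measure of mesophyll content. On day 5, 1 of the 5 fell and 1 rose, and the sum was 3.20 to 4.31% with Mg and 1.78 to 4.75% without. Both epidermis markers fell on day 8 (0.00849 to 0.0352% with Mg, 0.0035 to 0.00923% without) and 1 of 2 on day 5 (0.0187 to 0.0235% and 0.00628 to 0.0148%). Of the 2 vascular markers 1 fell on day 8 (0.0192 to 0.0284% and 0.00738 to 0.01001%) and 0 on day 5, and of the 3 guard cell markers 0 were called on either day. The part of these differences in the results was not tested. At least 2 of the 5 root markers were at 0 in all leaf libraries of both days, and the others summed to at most 23.6 units of signal in a library.

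**Figure D3:**
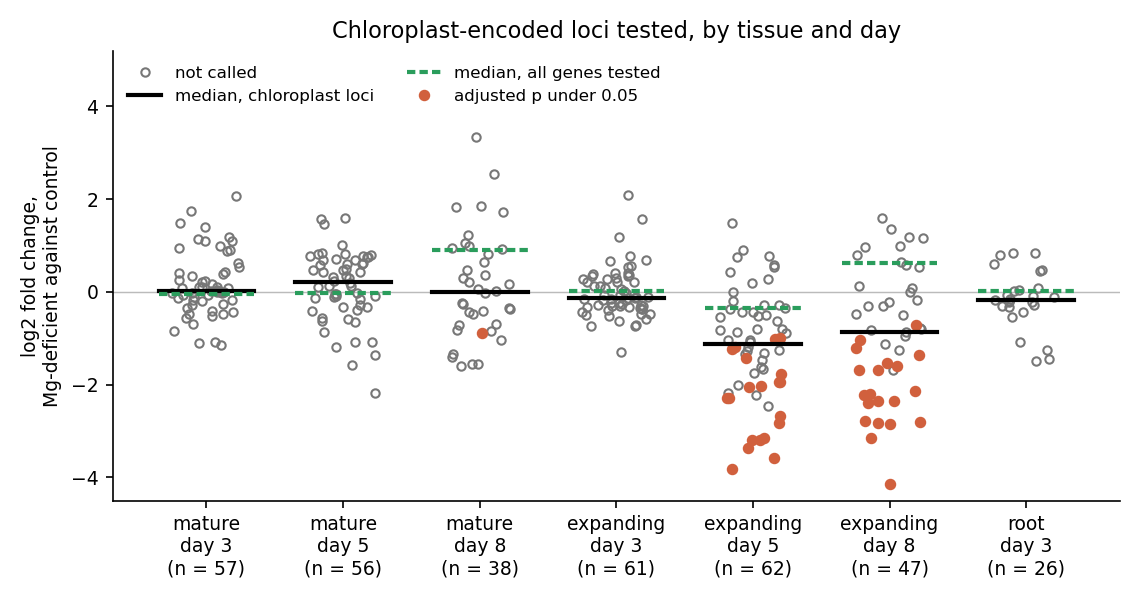
Log2 fold change (Mg-deficient against control, on log2(signal + 1)) of every chloroplast-encoded locus tested, by table, with 1 point per locus. Filled points were called at an adjusted p under 0.05, and lines mark the median of the chloroplast loci (solid) and of all genes tested (dashed). The filled points are the 20 falls each in expanding leaves on days 5 and 8 and a single fall, that of ATCG01130, in day 8 mature leaves.

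In expanding leaves on day 5 the falls reached from loci of very high signal to loci of a few reads. ATCG00470, the locus of highest signal, stood at 19076, 6378, 18419, 14522 and 17891 in control libraries and at 2771, 3926 and 3901 in Mg-deficient libraries. All Mg-deficient libraries were below the lowest control library. The log2 fold change was -2.03 ± 0.42 (SE), a 4.08-fold lower level, with an adjusted p of 0.00631 (limma).

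The other loci of high signal did not pass the test on that day. ATCG00220 stood at 4999 to 7400 with Mg and 7080 to 10407 without (adjusted p = 0.169), ATCG01020 at 2586 to 8796 and 4369 to 6295 (adjusted p = 0.736), and ATCG01130 at 3314 to 9364 and 3752 to 4953 (adjusted p = 0.372, all by limma). Loci of the highest signal thus did not move as a block on day 5.

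Among the 20 loci called on day 5, 5 had no read in any of the 3 Mg-deficient libraries. ATCG01110 had 67 reads over the 5 control libraries and ATCG00270 had 64. Against a floor of 3 reads over the Mg-deficient group their levels were at least 11.7-fold and at least 11.9-fold lower. Both could be tested only through their control group, so that their calls add no support.

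ATCG00170 and ATCG01010 were also among the 5 largest fitted falls of day 5. ATCG00170 stood at 9.79 to 40.7 with Mg and 1.31 to 2.93 without (log2 fold change -3.19, adjusted p = 0.00356). ATCG01010 stood at 46.7 to 111 with Mg and 4.85 to 11.9 without (log2 fold change -3.19, adjusted p = 0.000462, both by limma). The groups of both loci were well apart. ATCG00170 could be tested only through its control group, so that its call adds no support.

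PSBG also fell on day 5. Its control libraries held 26.9, 13.3, 45.6, 16.8 and 31.3 units and its Mg-deficient libraries 1.55, 9.49 and 9.77. The groups did not overlap, and the log2 fold change was -1.95 ± 0.64 (SE) with an adjusted p of 0.0439 (limma). The call did not hold under 12 of 18 other settings.

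The 15 loci of day 5 that were called and had reads in both groups had log2 fold changes of -3.19 to -1.001 (median -1.95). Of the 20 loci, 7 passed the minimum signal only through their control group, so that the count of falls partly reflects which loci could be tested. The count fell to 12, 13 and 12 when control library 1, 4 or 5 was left out.

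In expanding leaves on day 8 the falls included all 4 loci of highest signal. ATCG00220 stood at 10245, 11795, 8240 and 17118 in control libraries and at 2067, 1537, 1755, 1332 and 1473 in Mg-deficient libraries. The lowest control library was above the highest Mg-deficient library by a wide margin, and the log2 fold change was -2.82 ± 0.22 (SE), 7.08-fold lower (adjusted p = 1.28e-06, limma).

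ATCG00470 stood at 3544, 3936, 3124 and 3457 in control libraries and at 625, 755, 863, 784 and 814 in Mg-deficient libraries, a log2 fold change of -2.20 ± 0.16 (SE) with an adjusted p of 7.43e-07 (limma). ATCG01020 fell from 3114 to 6296 in control libraries to 569.5 to 778 without Mg (log2 fold change -2.81, adjusted p = 1.2e-06). ATCG01130 fell from 2194 to 3262 to 950.4 to 1342 (log2 fold change -1.21, adjusted p = 0.000159). None of these 4 loci overlapped between treatments.

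TRNP was the only named locus called on day 8. Its control libraries held 29.2, 36.2, 37.2 and 31.4 units and its Mg-deficient libraries 3.00, 2.99, 5.71, 7.21 and 0, the last with no read. The groups lay far apart, with a log2 fold change of -3.15 ± 0.67 (SE) and an adjusted p of 0.00199 (limma). The mean of its Mg-deficient libraries was below the minimum signal of 5. TRNP could thus be tested only through its control group, so that its call adds no support. ATCG00400 had the largest fitted fall of the day, from 17.2 to 54.9 units in control libraries to 0 to 2.99 without Mg (6 reads over the 5 libraries, log2 fold change -4.14, adjusted p = 0.000252, limma). Like TRNP, it could be tested only through its control group, so that its call adds no support. ATCG00080 fell from 125 to 318 units to 26.2 to 44.8 (log2 fold change -2.85, adjusted p = 2.12e-05, limma).

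The 20 loci called on day 8 had log2 fold changes of -4.14 to -0.72 (median -2.21), and 19 of them did not overlap between the groups. Only 3 passed the minimum signal through the control group alone, TRNP and ATCG00400 among them.

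**Figure D4:**
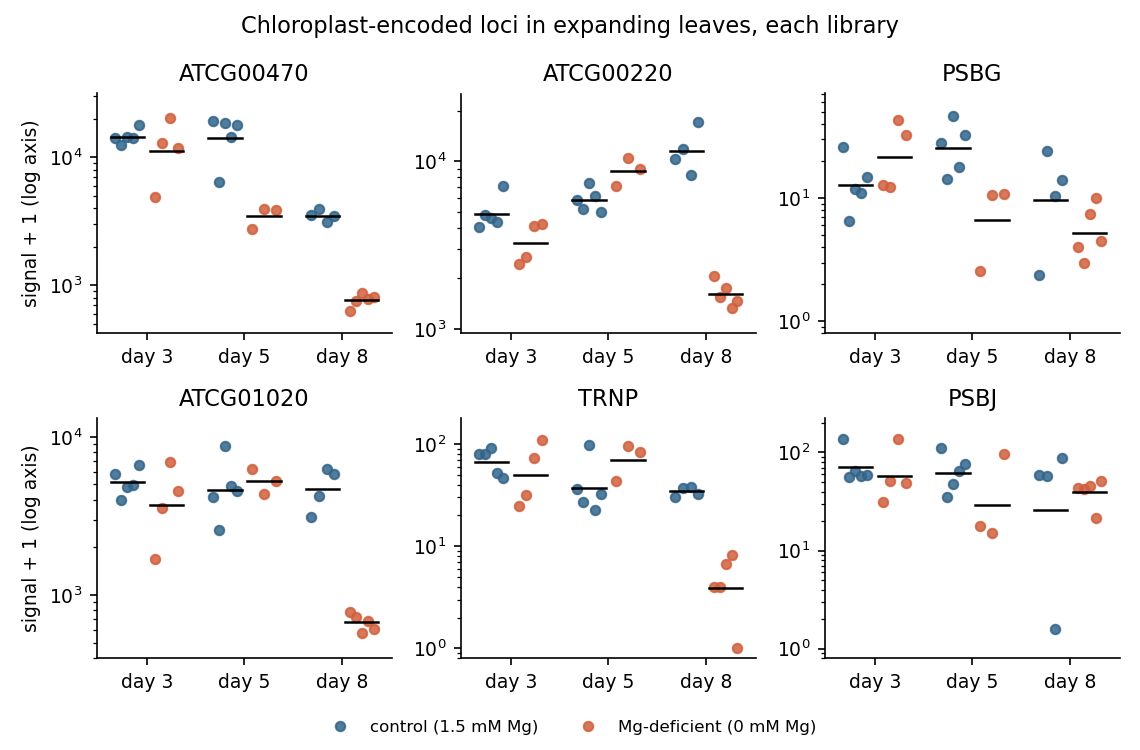
Signal plus 1 on a log axis in each expanding-leaf library of days 3, 5 and 8 for 6 chloroplast-encoded loci, with lines at the mean of the log values of a group. Levels are comparable within a day and locus only. ATCG00470 is lower in all Mg-deficient libraries on days 5 and 8, and ATCG00220, ATCG01020 and TRNP on day 8.

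The loci called on days 5 and 8 were in part the same. Of the 20 calls of day 5, 15 were tested on day 8 and 7 were called there too (35% of each list), ATCG00470 among them. That 7 of 15 is near the 20 of 47 loci (42.6%) called on day 8 whatever their day 5 result. The overlap is thus a count only, and the same overlap over all genes was not counted. Over both days 33 different loci were called. Among the 47 loci tested in expanding leaves on all 3 days, 31 had a log2 fold change below 0 on day 3, 39 on day 5 and 34 on day 8, and 27 were below 0 on both day 5 and day 8. Since 39 and 34 of 47 must overlap in large part, the 27 show no persistence of single loci. Signs were not counted over all genes, whose medians were 0.03, -0.34 and 0.63 on days 3, 5 and 8.

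The change between the days was itself tested by dividing the gap between the log2 fold changes of both days by its SE. Against day 3, the change on day 5 was lower for 13 of 59 loci (22.0%, against 10.5% of all genes) and higher for 1 (1.69%, against 7.41%). ATCG00470 was among the lower ones (difference -1.64, adjusted p = 0.0281), as was PSBG (difference -2.72, adjusted p = 0.0257), and ATCG00220 was the higher one (difference 1.16, adjusted p = 0.0307). The lower ones also include ATCG00170, ATCG00180 and ATCG01110. On day 5 these passed the minimum signal only through their control group, so that they add no support. Control and treatment libraries of different days are separate samples.

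From day 5 to day 8 the change of 5 of 47 loci was lower (10.6%, against 3.53% of all genes) and that of 2 was higher (4.26%, against 13.2%). The lower ones include ATCG00220 (difference -3.40, adjusted p = 1.42e-05), ATCG01020 (difference -2.99, adjusted p = 0.000428) and TRNP (difference -4.06, adjusted p = 0.00266). ATCG00470 was not among them, and its log2 fold changes were -2.03 and -2.20. TRNP on day 8 passed the minimum signal only through its control group. So did ATCG00180, which was among the higher ones, on day 5, and neither adds support. With the median of ratios 10 loci were lower and 1 was higher.

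In mature leaves no chloroplast-encoded locus was called on days 3 and 5 by limma or by edgeR, and no gene of the whole table was called by limma on either day (0% in each direction). At an unadjusted p under 0.05, 1 locus was lower and 2 were higher on day 3 (2.02 and 1.25% of all genes), and 1 was lower on day 5 (4.43% of all genes lower, 2.52% higher). The median log2 fold change of the loci tested was 0.03 on day 3 and 0.22 on day 5. ATCG00470 in mature leaves on day 5 stood at 22675, 18575, 16820, 1218 and 1174 in control libraries and at 18083, 18232 and 2056 in Mg-deficient libraries. Libraries of high and low level occurred in both treatments.

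On day 8 in mature leaves 1 of 38 loci fell (2.63%, against 0.173% of all genes) and none rose, where 3.43% of all genes rose. This was ATCG01130, at 1908, 3770, 1736 and 2171 in control and 1172, 1636, 1187 and 1021 in Mg-deficient libraries (log2 fold change -0.89 ± 0.24 SE, adjusted p = 0.0387, limma). The call was lost in both edgeR tests (0 loci called) and when any of 6 of the 8 libraries was left out. The median of the chloroplast loci was 0.00, against 0.91 over all genes. Scaling by the median of ratios moved the latter to -0.63 and that of the chloroplast loci to -1.46, with 10 loci falling and 1 rising, so that the direction on this day depends on the scaling. Control libraries of this table had reads for 6908 to 14557 genes and Mg-deficient ones for 12541 to 17029.

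The difference between expanding and mature leaves was tested on days 5 and 8. This test takes the libraries of both tissues as independent, although they can come from the same plants. On day 5 the change in expanding leaves was lower for 12 of 54 loci (22.2%, against 10.8% of all genes) and higher for 1 (1.85%, against 9.96%). The 12 include ATCG00170 and ATCG00180. In expanding leaves these passed the minimum signal only through their control group, so that they add no support. On day 8 it was lower for 5 of 36 loci (13.9%, against 4.29% of all genes) and higher for none (1.66% of all genes). The 5 loci were ATCG00220 (log2 fold change -2.82 in expanding and -0.36 in mature leaves), ATCG00470 (-2.20 and 0.37), ATCG00480 (-2.14 and 0.48), ATCG01020 (-2.81 and -0.23) and TRNP. The adjusted p of the first 4 were 2.65e-06 to 0.0184, and that of TRNP is not given, since its value in mature leaves was fitted against control libraries without a read. With the median of ratios the counts were 6 lower and 1 higher on day 5 and 1 lower on day 8. In mature leaves on day 8 TRNP had no read in any of the 4 control libraries and stood at 15.8, 45.5, 12.6 and 0 units without Mg, and it was not called (adjusted p = 0.0779, limma).

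In expanding leaves on day 3 and in roots on day 3 no locus was called by limma or by edgeR. Of all genes 0.17% rose and 0.0589% fell in these expanding leaves, and 0.0887% rose and 0.112% fell in roots. At an unadjusted p under 0.05, 3 of 61 loci were lower and 1 was higher in expanding leaves (3.44 and 4.53% of all genes), and 4 of 26 were lower in roots (6.12% of all genes lower, 4.81% higher). With limma's array weights 3 loci fell in expanding leaves on day 3. The median log2 fold changes were -0.13 and -0.17, against 0.03 and 0.01 over all genes. ATCG01130, which led the chloroplast signal of roots, had 2112 ± 414.7 units (SD, n = 6) in control roots and 1990 ± 468.8 (SD, n = 3) without Mg.

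The named loci that were not called are given with their values by role. Of the photosystem II genes, PSBJ had log2 fold changes between -1.33 and 0.59 in the 6 leaf tables, with its lowest value in mature leaves after 8 days. The highest value was that of expanding leaves on day 8, where control library 3 had no read for PSBJ. Control libraries 1, 2 and 4 stood there at 58.1, 56.2 and 86.9, and the Mg-deficient libraries at 20.7 to 50.1. After 3 days its mature-leaf signal stood at 69.0 to 162.1 with Mg and 26.8 to 52.5 without, groups that did not overlap but with an adjusted p of 0.98. PSBK was below the minimum signal in all 6 leaf tables and was not listed in roots, with 24 reads over the 4 control libraries of expanding leaves on day 8 and 1 read over the 5 Mg-deficient ones.

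RPL20, of the large ribosomal subunit, had log2 fold changes of -1.09 to 1.17 in the 5 tables where it was tested. In expanding leaves on day 8 it stood at 0.201 to 24.2 with Mg and 1.57 to 21.0 without, which overlapped.

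ACCD stood at 12.5 to 47.6 with Mg and 0.486 to 42.1 without of expanding leaves on day 5, and at 0.376 to 24.9 and 7.97 to 9.84 on day 8, with overlap on both days. In roots its 6 control libraries held 10.8 to 25.7 units and its 3 Mg-deficient libraries 3.28 to 8.42, which did not overlap (log2 fold change -1.49 ± 0.41 SE), but with an adjusted p of 0.154 this was not called (limma). CLPP had log2 fold changes of -1.74 in expanding leaves on day 5 (adjusted p = 0.15) and -0.47 on day 8 (adjusted p = 0.592). CEMA was below the minimum signal wherever it was listed.

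Nuclear genes that work with the chloroplast-encoded ones were taken from 9 lists of 59 genes in all. In expanding leaves 29 of 59 fell on day 5 and none rose, where 14.8% of all genes fell and 13.7% rose. On day 8, 41 of 59 fell and 3 rose, where 14.9% of all genes fell and 30.8% rose. On day 8 every nuclear subunit listed for photosystem I (12 of 12), photosystem II (9 of 9), the cytochrome b6f complex and ATP synthase (4 of 4), the Rubisco small subunit (4 of 4) and the NDH complex (4 of 4) fell. Their median log2 fold changes were -2.38, -2.78, -2.38, -3.41 and -4.85 in that order. The small subunit genes are near-identical and their counts may be shared between them.

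On day 5, 7 of 12 photosystem I genes, 7 of 9 photosystem II genes, 2 of 4 small subunit genes and 3 of 4 NDH genes fell, and none of the 4 cytochrome b6f and ATP synthase genes was called. PSAH2, a photosystem I subunit, stood at 3445 to 5538 with Mg and 995 to 1835 without (log2 fold change -1.74, adjusted p = 0.002), and RBCS2B, a Rubisco small subunit, at 4360 to 5684 and 631 to 2190 (log2 fold change -1.89, adjusted p = 0.00537). The count of 29 dropped to 14, 14, 15 and 17 when control library 1, 2, 4 or 5 was left out. On day 8 the smallest p was that of NDHL (AT1G70760), at 1266 to 2065 with Mg and 16.0 to 75.2 without (log2 fold change -5.26 ± 0.38 SE), followed by PETC, the Rieske protein of the cytochrome b6f complex, at 2344 to 3357 and 423 to 651.5 (log2 fold change -2.38 ± 0.18 SE). PDE334, an ATP synthase subunit, and PSBR, a photosystem II subunit, fell by 2.37 and 2.27 on the log2 scale.

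The genes of chloroplast transcription were less uniform. Of the 6 sigma factors 3 fell on day 5 (14.8% of all genes fell), and on day 8, 2 fell and 1 rose (14.9% of all genes fell and 30.8% rose). Counts in lists this short are descriptions only. SIG4 (AT5G13730) stood at 103 to 146 with Mg and 17.8 to 47.6 without on day 5 and at 53.0 to 104 and 2.001 to 6.98 on day 8 (log2 fold changes -1.89 and -4.27). SIG5 (SIGE, AT5G24120) was the factor that rose on day 8, from 0 to 4.31 units in control libraries to 10.2 to 51.4 without Mg (log2 fold change 3.73, adjusted p = 0.000916, limma). Its control values all lay below the minimum signal of 5. This rise could be tested only through the Mg-deficient group, so that its call adds no support. The other rises of day 8 were AT5G15700 of the nucleus-encoded polymerase list (log2 fold change 3.24, adjusted p = 0.00736) and FLN1 of the polymerase-associated proteins (log2 fold change 2.099, adjusted p = 0.0127). These 3 were named after their values were seen.

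Of the 12 polymerase-associated proteins 5 fell on day 5, and on day 8, 3 fell and 1 rose, beside the same shares of all genes (14.8% falling on day 5, 14.9% falling and 30.8% rising on day 8). Of the 6 genes of chloroplast RNA decay and binding 2 fell on day 5 and 3 on day 8. CSP41A and CSP41B (AT1G09340), which bind chloroplast RNA, fell on both days, with log2 fold changes of -1.58 and -2.36 at first (day 5) and -2.75 and -2.38 later (day 8). In mature leaves 4 of the 57 nuclear genes tested fell and 1 rose on day 8 (0.173% and 3.43% of all genes), and 28 were called (27 falls and 1 rise) with the median of ratios. The falls were RBCS3B (log2 fold change -0.87), RBCS1A (-0.52), NDHL (-1.52) and PSAG (-0.62). The rise was TRX z, a thioredoxin-like protein of the polymerase complex, at 0 in all 4 control libraries and at 15.6 to 39.4 units without Mg. TRX z could be tested only through its Mg-deficient group, so that its call adds no support. The count of 5 was 0 without control library 3 or Mg-deficient library 4, 1 and 2 without control library 2 or 4, 3 and 8 without Mg-deficient library 2 or 1, and 0 with the quasi-likelihood test of edgeR. None was called in mature leaves on days 3 and 5, in expanding leaves on day 3 or in roots (limma and both edgeR tests).

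**Figure D5:**
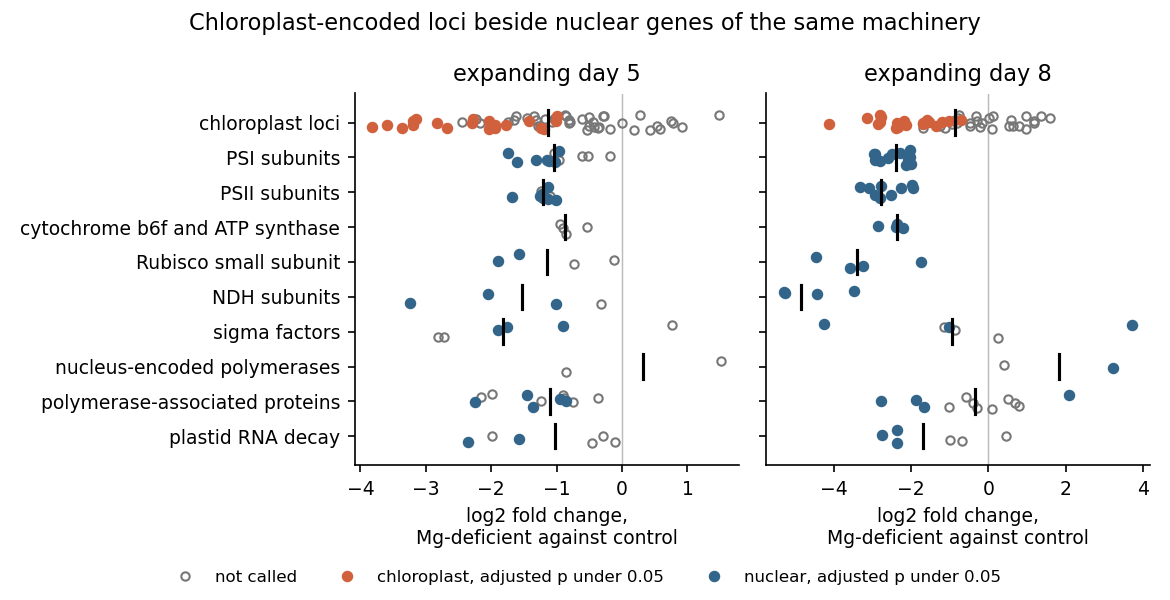
Log2 fold change (Mg-deficient against control) of the chloroplast-encoded loci tested and of the nuclear genes of 9 lists in expanding leaves on days 5 and 8, with 1 point per gene, filled where the adjusted p was under 0.05, and a line at each median. On day 8 the medians of the nuclear photosystem I and II lists are -2.38 and -2.78, and that of the chloroplast loci is -0.86.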

How the data were processed

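RNA-seq was done on mature leaves, expanding leaves and roots of Arabidopsis thaliana with and without Mg, in 58 libraries (strand-specific, 50 bp single-end reads). The deposited values are signal, which the authors made from read counts by adjusting libraries to a common size within each of 7 tables. Submitters' notes name R 3.5.0 and TAIR10, and the aligner and counter are not given in the sources used here. Whole reads were recovered from 98.6 to 100% of values (tolerance 0.001, dispersion 0.05), and gave the depths printed. Values were tested as log2(signal + 1) with limma 3.58.1 (trend, no covariates, R 4.3.3) after dropping genes whose mean was below 5, with Benjamini-Hochberg adjustment over all genes of a table. Fold changes on this scale understate the change of low genes. The edgeR 4.0.16 tests ran on recovered reads. The change in one table against another was tested as a difference of log2 fold changes over its SE, with Satterthwaite degrees of freedom.

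Where more than 10 loci were called, the 5 largest falls are named, with all called loci otherwise, and of the nuclear genes up to 6 with the smallest p. Representatives of each complex could not be chosen, since most loci carry no name in the sources, and the 4 loci of highest signal were named after their values were seen. One result that this rule selects is not reported here. The members and gene lists were chosen with earlier results of these data known. Nothing beyond the labels shows that replicates came from separate cultures, so p-values measure the spread between these libraries. Samples with the same replicate number did not deviate together beyond a correlation of 0.1 in every pair of any table, so the numbers were not used as pairs. The fits were tested on simulated data. Other pseudocounts (0.25 and 5), filters (20 and none), scalings, array weights, voom, a replicate block and leaving out each library were tried. Python 3.11.15 with numpy 2.4.6, pandas 2.3.3, scipy 1.17.1 and matplotlib 3.10.9 was used for summaries.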

Additional observations from a re-analysis of the deposited data

Results flagged for a closer look

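The change of chloroplast-encoded loci without Mg differed between tables by a test of the difference itself in 4 comparisons, and all genes are given beside each. Between expanding and mature leaves it differed for 13 loci on day 5, of which 12 were lower (22.2% of loci, 10.8% of all genes) and 1 higher (1.85%, 9.96% of all genes), and for 5 loci on day 8, all lower (13.9%, 4.29% of all genes). With both directions together the day 5 count is near the share of all genes. Within expanding leaves it differed for 14 loci between days 3 and 5, of which 13 were lower (22% of loci, 10.5% of all genes) and 1 higher (1.69%, 7.41% of all genes). Between days 5 and 8 it differed for 7 loci, 5 lower (10.6%, 3.53% of all genes) and 2 higher (4.26%, 13.2% of all genes), which together is no larger a share than among all genes. The counts of all 4 comparisons include loci, named above, that passed the minimum signal through 1 group alone and add no support. Of 25 groups of 4 to 6 libraries checked for 1 library far from the others in the chloroplast share or in the signal of a called and named locus, 0 had one.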

How the results depend on the processing

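No locus named as called changed direction under any alternative, and most counts stayed within 1.5 times. Values that were not called did change sign when 1 library was left out. The difference in share ran from -0.257 to 0.113 percentage points in mature leaves on day 3, -0.0992 to 0.899 on day 5, -0.618 to 0.1246 in expanding leaves on day 3 and -0.0259 to 0.0116 in roots. The median log2 fold change of the loci ran from -0.11 to 0.21 in mature leaves on day 3, -0.05 to 0.81 on day 5 and -0.27 to 0.15 on day 8, and from -0.33 to 0.12 in expanding ones on day 3. With the median of ratios that of mature leaves on day 8 was -1.46, and with the replicate block that of day 5 was -0.42. The calls of expanding leaves on day 8 stayed between 18 and 24 when a library was left out, and without a filter there were 6 rises and 21 falls. On day 5 the 20 calls became 12 with a filter at 20, where 39 loci were tested, and 12 to 22 without a library. Replicate numbers pair no samples, and with the replicate block 2 loci were called on day 5, while of the Mg-deficient libraries of that day 0 of 3 correlated best with their own number. The single call of mature leaves on day 8 became 2 with a pseudocount of 0.25, 0 with a filter at 20, 11 with the median of ratios, 0 with array weights, 2 with the replicate block, 2 with voom, 0 and 0 with the edgeR tests, and 0 to 1 without a library. In expanding leaves on day 3 array weights gave 3 calls. Without its locus of highest signal the difference in share was -0.15 percentage points in expanding leaves on day 5 (-0.69 with it) and -0.65 on day 8 (-1.23 with it). Of the tests between tables, expanding against mature leaves on day 5 gave 7 loci with a filter at 20, 7 with the median of ratios and 0 with the replicate block, and on day 8 it gave 1 with the median of ratios. Day 5 against day 3 gave 2 with the replicate block. Day 8 against day 5 gave 4 with a filter at 20, 14 without one, 11 with the median of ratios and 2 with the replicate block. The nuclear genes of mature leaves on day 8 gave 1 with a filter at 20, 28 with the median of ratios, 2 with array weights, 11 with voom, 0 and 1 with the edgeR tests and 0 to 8 without a library. Those of expanding leaves gave 1 on day 3 with array weights, and on day 5 gave 2 with the replicate block and 14 to 37 without a library. The edgeR alternatives and those of the nuclear genes were chosen after seeing the data. Apart from what the filters and left-out libraries remove, the cause was not tested.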
